A study of Mus musculus with 2 samples.

Results

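Barttin, the product of Bsnd, and the chloride/proton exchangers of the ClC family encoded by Clcn3, Clcn4, Clcn5, Clcn6 and Clcn7 were followed across the cell classes of the mouse thick ascending limb (TAL). These 6 genes, chosen by name, were all present among the 32227 genes of the count matrices. Their counts were summed over nuclei of each TAL class in each of 2 single-nucleus RNA-Seq libraries, and the classes were defined by other genes. A nucleus, or strictly its barcode, was taken as TAL with at least 10 counts of Slc12a1, which encodes the apical sodium-potassium-chloride cotransporter NKCC2. It was called macula densa (MD) with at least 3 counts of Nos1 and Pappa2 together, otherwise TAL-β with at least 2 of Tmem52b, otherwise TAL-γ with at least 2 of Tmem207 and Gpc5 together, and otherwise TAL-α.

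Nuclei came from kidneys of male mice of strain B6, labelled WT, whose labelled age of 12 carries no unit. The mice carried a tamoxifen-activated Cre driven by Slc12a1 (NKCC2-Cre) and the INTACT reporter, which puts green fluorescent protein (GFP) on the nuclear membrane of cells where Cre was active. GFP-positive nuclei were sorted from a superficial strip of cortex (cortex library) and from the remaining tissue, deep cortex included (medulla library). Both libraries share the genotype and the tamoxifen treatment, and how many animals each one holds is not given in the sources used here. With 1 library per region there is no replicate, so region and library cannot be told apart and no test was run. Error is given as a 95% interval, which covers counting error only and not the spread between animals.

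In TAL cells chloride enters with sodium and potassium through NKCC2 and leaves across the basolateral membrane through chloride channels that need barttin as their subunit. Loss of barttin in humans causes salt wasting with deafness, a form of Bartter syndrome. ClC-3 to ClC-7 sit mostly on endosomes and lysosomes, where they exchange chloride for protons next to the vesicular proton pump. ClC-5 is best known from the proximal tubule, where its loss causes Dent disease, and ClC-7 works in lysosomes with the subunit encoded by Ostm1.

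On the GRCm39 build, matched by Ensembl identifier to the GENCODE annotation, Bsnd (ENSMUSG00000025418) spans 8885 bases of chromosome 4 on the minus strand (106340653 to 106349537). Clcn6 (ENSMUSG00000029016) lies on the same chromosome (148088716 to 148123304, minus strand). Clcn3 (ENSMUSG00000004319) lies on chromosome 8 (61362958 to 61446785) and Clcn4 (ENSMUSG00000000605) on chromosome 7 (7284412 to 7303914). Clcn5 (ENSMUSG00000004317) lies on chromosome X (7019726 to 7185661) and Clcn7 (ENSMUSG00000036636) on chromosome 17 (25352356 to 25381080). Clcn7 is the single member on the plus strand and overlaps no other annotated gene. Clcn3 overlaps Nek1 on the opposite strand by 569 bases. Bsnd shares 5705 bases with a non-coding gene on its own strand, Gm53010, that is not among the genes counted. Whether counting used strand is not given in the sources used here. Where it did not, reads in such stretches cannot be assigned to 1 gene.

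RefSeq promoters of 300 bases (250 before and 50 after the annotated start, GRCm38.p6 build) were matched by symbol for 5 of the 6 genes, 9 promoters in all. They were read for the E-box CACGTG, a palindrome that reads the same on both strands and that helix-loop-helix factors of lysosomal gene programmes can bind. Of all 32851 promoters of this length, 7.15% hold the motif and 0.594% hold it 2 or more times. Among the members it occurs once in Clcn4, 153 bases before the start, and 2 times each in Clcn6 (48 and 25 bases before the start) and Clcn7 (15 bases before and 7 bases after it). These 3 are shown as the promoters of the set that hold the motif. Any relation of the motif to the levels given further on was not tested. A match is a description of the letters, not of a bound site. Capitals mark the motif, and all are written 5′ to 3′ on the gene's strand (Clcn4 chr7:7299508-7299807, minus; Clcn6 chr4:148038764-148039063, minus; Clcn7 chr17:25133141-25133440, plus).
Clcn4: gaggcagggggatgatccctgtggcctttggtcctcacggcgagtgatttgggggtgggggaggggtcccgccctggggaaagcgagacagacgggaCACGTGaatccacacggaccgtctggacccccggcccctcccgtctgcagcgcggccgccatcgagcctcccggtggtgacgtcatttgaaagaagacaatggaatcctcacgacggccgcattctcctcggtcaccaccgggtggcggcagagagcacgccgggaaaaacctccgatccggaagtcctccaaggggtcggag
Clcn6: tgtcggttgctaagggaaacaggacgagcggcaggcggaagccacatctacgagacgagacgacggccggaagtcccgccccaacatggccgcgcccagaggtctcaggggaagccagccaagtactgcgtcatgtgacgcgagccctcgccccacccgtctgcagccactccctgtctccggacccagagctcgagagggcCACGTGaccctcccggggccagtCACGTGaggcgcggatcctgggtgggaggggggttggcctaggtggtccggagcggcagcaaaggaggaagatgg
Clcn7: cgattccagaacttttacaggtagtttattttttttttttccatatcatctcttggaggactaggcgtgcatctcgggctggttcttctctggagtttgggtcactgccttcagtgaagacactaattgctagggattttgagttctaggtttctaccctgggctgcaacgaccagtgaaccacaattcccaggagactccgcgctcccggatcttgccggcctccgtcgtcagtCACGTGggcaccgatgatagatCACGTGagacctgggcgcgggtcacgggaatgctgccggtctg

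The cortex library held 5442 barcodes with 16457300 counts and the medulla library 8121 barcodes with 20947211 counts, and they shared 0 barcodes. The rule gave 2824 TAL-α, 1493 TAL-β, 248 TAL-γ and 653 MD barcodes in cortex, and 3776, 571, 3542 and 78 in medulla. It left 224 and 154 barcodes below the Slc12a1 minimum. Median depth was 1883 counts in cortical MD against 2425 to 2668 in the other cortical classes, and 1996 counts in medullary MD against 2404 to 2780.

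Markers that the rule did not use followed the class names for MD and in part for the other classes. Ptgs2, a macula densa enzyme, stood at 85.8 CPM (counts per 1000000 counts of the class) in cortical MD and at 4.14 CPM or less in the other cortical classes, and at 126 CPM in medullary MD. Cldn16, the claudin of divalent cation transport, was highest in TAL-β of both libraries (188 and 250 CPM), and Kcnj10 stood at 139 to 170 CPM in TAL-β, 109 to 144 in TAL-γ and 13.2 to 17.8 in TAL-α. Cldn10, the claudin of monovalent cation transport, was still at 116 CPM in cortical TAL-β against 216 CPM in cortical TAL-α. By deposited cluster of the cortex library, it was at 5.35 and 3.28 CPM in clusters 2 and 4 (71.3% and 75.5% TAL-β). In clusters 9 and 10 (42.6% and 41.7% TAL-β) it was at 69.4 and 112 CPM. It was at 449 CPM in cluster 13, where Lrp2 of the proximal tubule was at 2386 CPM. The part of proximal tubule transcripts in the Cldn10 of TAL-β was not tested. Of cortical TAL-β barcodes, 31.8% passed another class threshold too, and 62.9% of medullary ones did, a count that the order of the rule sets to 0 for TAL-α and TAL-γ. The TAL-γ groups of the libraries differed in markers, and the cortical one resembled TAL-β in some of them. Cldn16 stood at 153 CPM in cortical TAL-γ against 55.0 in the medullary one, and Pth1r, the parathyroid hormone receptor, at 455 against 42.0, where cortical TAL-β had 566. Ano4 stood at 94.5 against 714 CPM and Kcnt1 at 43.6 against 176. Rbfox1 went the other way, at 977 CPM in cortical TAL-γ against 863 in the medullary one. Nrxn3 did not share the resemblance to TAL-β. It stood at 302 CPM in cortical TAL-γ, below the 2145 of cortical TAL-β and the 435 of cortical TAL-α. The proximal tubule list held Lrp2, Slc34a1, Slc5a12, Slc13a3, Slc22a6, Slc27a2, Cyp2e1 and Keg1, and all 8 genes were detected in every class. It summed to 2266 to 4156 CPM in the cortical classes and 528 to 792 CPM in the medullary ones. The distal convoluted tubule list (Slc12a3, Trpm6, Pvalb and Slc8a1) summed to 801.5 CPM in cortical TAL-β, against 164 in TAL-α and 397 in MD. In medulla it summed to 541 CPM in TAL-β against 35.3 in TAL-α. Slc8a1 is used by other nephron cells too.

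Bsnd was detected in every class and library, and under this class rule it was highest in cortical TAL-α and lowest in MD. In the cortex library it stood at 81.5 CPM in TAL-α (95% interval 75.3 to 88.0, 649 counts), 67.9 in TAL-β (61.0 to 75.3), 57.0 in TAL-γ (41.9 to 75.8) and 35.4 in MD (26.9 to 45.6, 59 counts). In the medulla library it stood at 54.2 CPM in TAL-α (49.6 to 59.1, 508 counts), 65.5 in TAL-β (54.0 to 78.6), 47.8 in TAL-γ (43.4 to 52.5) and 18.1 in MD (3.73 to 52.8, 3 counts). Cortical TAL-α was above all other groups, while neighbours among the second to sixth places did not differ beyond counting error. The first place moved with the class rule. With classes narrowed by Cldn10, Cldn16 and Kcnj10, cortical TAL-β was at 81.6 CPM and cortical TAL-α at 75.4. Cldn10 was also high beside proximal tubule transcripts. In deposited cluster 6 of cortex it was at 382 CPM, with Lrp2 at 1791 and Bsnd at 29.9 CPM. In cluster 1 of cortex these were at 207, 14.9 and 98.1 CPM. The part of proximal tubule transcripts in the values of the narrowed classes was not tested. Without barcodes that passed more than 1 threshold, medullary TAL-β was at 84.0 CPM. Both MD groups were at the bottom.

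Relative to TAL-α of the same library, Bsnd in cortical MD was 0.434-fold (0.327 to 0.567), past the fold of 1.5 used here as the mark of a difference. After thinning every barcode to 1000 counts it was 0.273 (0.154 to 0.453). The medullary MD ratio was 0.334 (0.0686 to 0.981) and rests on 3 counts. TAL-γ stood at 0.699 of TAL-α in cortex (0.508 to 0.941) and at 0.883 in medulla (0.775 to 1.01), both inside the fold. With every class threshold raised by 1 count, the cortical TAL-γ ratio was 0.624, past the fold. That setting also left out TAL-α barcodes with any count of the other classes' rule genes. It kept 2083 cortical TAL-α barcodes, with Bsnd at 86.6 CPM. Taking off 10% of free RNA put the cortical TAL-γ ratio at 0.657, also past the fold. TAL-β stood at 0.833 of TAL-α in cortex (0.730 to 0.95) and at 1.21 in medulla (0.978 to 1.48). These TAL-β ratios moved with the class rule, the cortical one to 1.08 (0.879 to 1.33) with narrowed classes, and the medullary one to 1.55 (1.13 to 2.08) without barcodes that passed more than 1 threshold.

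Between libraries, medullary TAL-α was at 0.665 of cortical TAL-α (0.591 to 0.748), just past the fold. Scaling without Slc12a1, Umod and mitochondrial genes put that ratio at 0.668, just inside it, and narrowed classes put it at 0.719 (0.585 to 0.884). In TAL-β the ratio between libraries was 0.964 (0.774 to 1.19) and in TAL-γ, whose groups differ in the markers above, 0.839 (0.620 to 1.16), and both intervals hold 1.

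**Figure D1:**
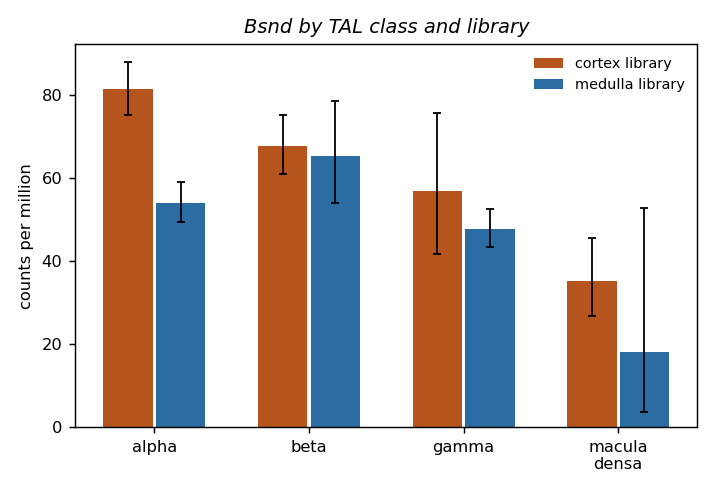
CPM of Bsnd in the 4 TAL classes of the cortex (orange) and medulla (blue) libraries, with 95% Poisson intervals for counting error. Bsnd is lowest in macula densa of both libraries, and among the cortical classes as defined by this rule it is highest in TAL-α.

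Clcn3, an endosomal exchanger, had the narrowest range of CPM over the groups, a range that low counts widen by themselves in the other members. Its level was 257 CPM in cortical TAL-α (246 to 268, 2047 counts), 273 in TAL-β, 262 in TAL-γ and 257 in MD. In the medullary classes it was 242, 264, 229 and 253 CPM in the same order. The highest of the 8 groups was 1.19 times the lowest. Without medullary MD that range of Clcn3 was still 1.19, and that of Clcn5 was 1.29. Clcn3 ratios with an interval away from 1 were medullary TAL-β to TAL-γ, 1.15 (1.04 to 1.27), and medullary to cortical TAL-α, 0.941 (0.886 to 0.9998). Both were inside the fold. Cortical MD was at 0.999 of TAL-α (0.898 to 1.11), so a difference of 1.5-fold in either direction lies outside the counting interval.

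Clcn4, a close relative of Clcn3 whose product pairs with ClC-3, also stayed within a narrow range. It stood at 52.0, 45.5, 53.3 and 63.0 CPM in cortical TAL-α, TAL-β, TAL-γ and MD and at 49.3, 60.3, 50.9 and 48.2 CPM in the medullary classes. Its one ratio with an interval away from 1 was medullary to cortical TAL-β, 1.33 (1.04 to 1.67), inside the fold, and with narrowed classes it was 1.04 (0.704 to 1.52).

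Clcn5, the exchanger of the endocytic pathway, was at 124 CPM in cortical TAL-α (117 to 132), 132 in TAL-β, 114 in TAL-γ and 145 in MD. In medulla it was at 144 CPM in TAL-α (137 to 152), 147 in TAL-β, 144 in TAL-γ and 108 in MD (18 counts). Medullary TAL-α and TAL-γ were above their cortical counterparts by 1.16-fold (1.07 to 1.26) and 1.26-fold (1.02 to 1.57). Without barcodes holding transcripts of other cell types the TAL-γ ratio was 1.01 (0.788 to 1.31). Cortical MD was above TAL-α by 1.16-fold (1.01 to 1.34). These ratios were inside the fold.

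Clcn6, a late endosomal exchanger, was the member with the fewest counts. It stood at 22.0 CPM in cortical TAL-α (175 counts), 24.5 in TAL-β, 27.9 in TAL-γ and 33.6 in MD (25.4 to 43.6, 56 counts). Cortical MD was 1.53 times TAL-α (1.11 to 2.08), just past the fold. In the medulla library it was at 22.5, 25.6 and 24.0 CPM in TAL-α, TAL-β and TAL-γ, and at 12.0 CPM in MD (1.46 to 43.5). The medullary MD value rests on 2 counts, and its ratio to TAL-α, 0.535 (0.0644 to 1.96), gives no direction.

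Clcn7, the lysosomal exchanger, was at 38.9 CPM in cortical TAL-α, 38.8 in TAL-β, 46.1 in TAL-γ and 52.2 in MD (41.8 to 64.4, 87 counts). Cortical MD was 1.34 times TAL-α (1.04 to 1.71), inside the fold. It was past the fold after thinning, at 1.65 times (1.11 to 2.39), and by the mean of per-barcode CPM, at 1.504 times. In medulla it was at 34.8, 37.0, 32.0 and 42.2 CPM in the same class order, the last from 7 counts. Its widest difference between libraries was in TAL-γ, at 0.695 (0.495 to 1.00), and this turned to 1.13 (0.652 to 2.16) without barcodes holding transcripts of other cell types. With 10% of free RNA taken off it was 0.655, past the fold.

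**Figure D2:**
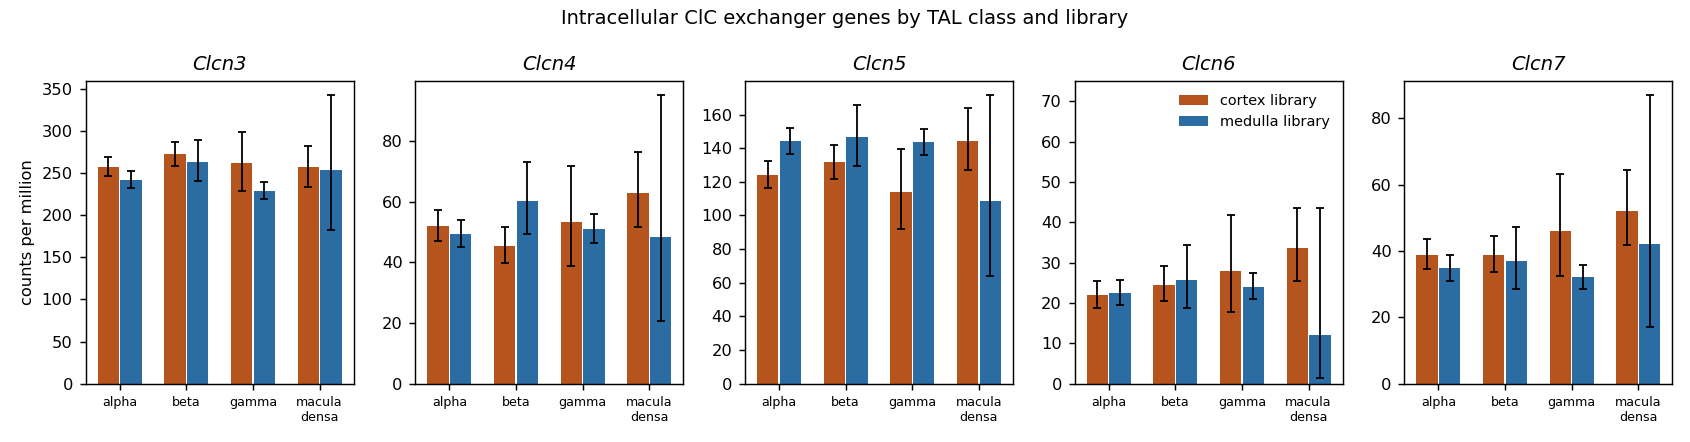
CPM of Clcn3, Clcn4, Clcn5, Clcn6 and Clcn7 by TAL class in the cortex (orange) and medulla (blue) libraries, with 95% Poisson intervals and a separate vertical scale for each gene. Clcn3 lies between 229 and 273 CPM in all 8 groups, and the medullary macula densa bars, from 78 barcodes, have the widest intervals.

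The members past the fold were counted beside the share of all genes past it. In cortical MD against TAL-α, 2 of 6 members were past the fold, Bsnd lower and Clcn6 higher, beside 24.3% of the 11465 genes with at least 50 counts over both groups. In cortical TAL-β and TAL-γ against TAL-α, 0 of 6 members were, beside 9.59% and 18.3% of all genes. In medullary TAL-β and TAL-γ against TAL-α, 0 of 6 were, beside 14.9% and 7.79%. Without barcodes that passed more than 1 threshold, which left 212 medullary TAL-β barcodes, Bsnd was at 1.55 and Clcn7 at 1.58 (1.06 to 2.27) there. The share of all genes past the fold was not computed for that alternative, so no count of members is read from it. In medullary MD, 2 of 6 (Bsnd and Clcn6, with 3 and 2 counts) were past the fold, beside 52.3% of all genes, in a class of 166019 counts.

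Between libraries, 1 of 6 members, Bsnd, was past the fold in TAL-α, beside 21.3% of all genes. In TAL-β and TAL-γ, 0 of 6 were, beside 19.8% and 31.2%. The median ratio of medulla to cortex in TAL-γ was 0.867 over the members and 0.979 over all genes tested. In cortical MD against TAL-α it was 1.19 over the members and 1.02 over all genes. With 6 genes to count, no share was read as standing apart from the background.

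**Figure D3:**
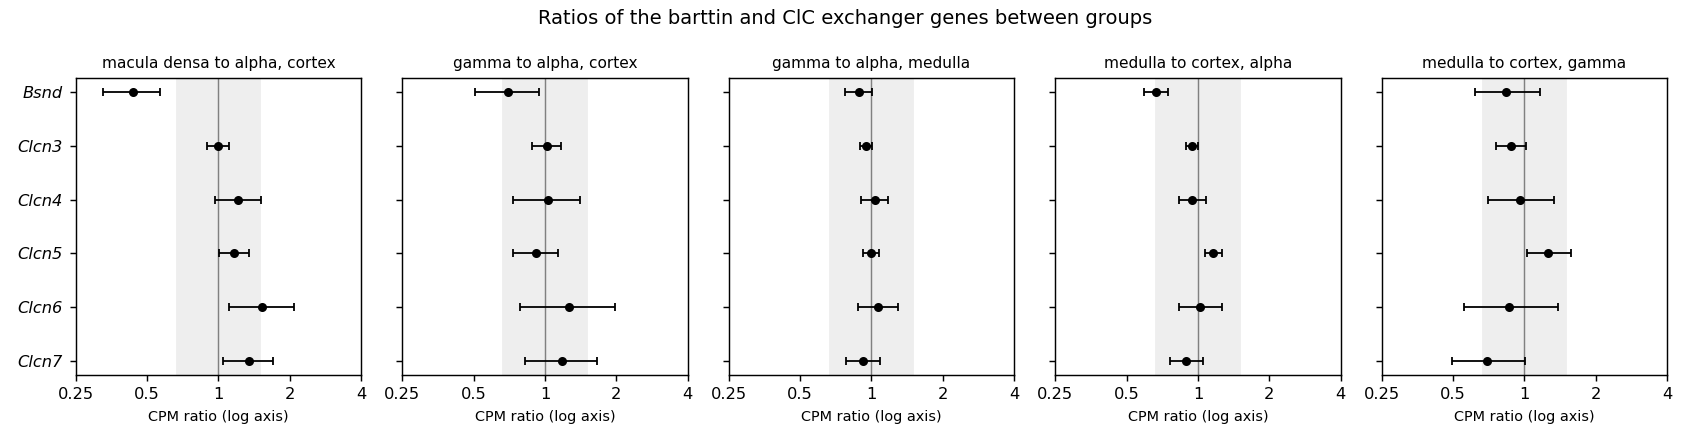
Ratio of CPM between pairs of groups for the 6 genes on a log axis, with 95% intervals for counting error and a grey band for ratios inside the fold of 1.5. Bsnd at 0.434 in macula densa against TAL-α of cortex and at 0.665 in medullary against cortical TAL-α lies below the band, and Clcn6 at 1.53 lies just above it.

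Counts per nucleus were low, and in each TAL class most nuclei held no count of a given member, other than Clcn3 in cortical TAL-β (counted in 53.9% of barcodes). In cortical TAL-α, Bsnd was counted in 537 of 2824 barcodes, 19.0% (17.6 to 20.5, exact binomial), and in cortical MD in 50 of 653, 7.66% (5.74 to 9.97). When each barcode was thinned to 1000 counts, which sets the depths equal and left out 0 of the cortical barcodes, the shares were 8.29% and 2.45%. In medullary TAL-α, TAL-β and TAL-γ the thinned shares of Bsnd were 5.14%, 7.01% and 4.92%, and 0 of 78 MD barcodes held a count, which allows up to 4.62% by the exact interval. MD had the lowest share of Bsnd in both libraries, thinned or not, while cortical TAL-α, TAL-β and TAL-γ, at 8.29%, 7.50% and 7.66% thinned, lay close together.

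In the cortex library the shares of the exchangers in MD were set beside those in TAL-α. Clcn3 was counted in 20.9% of thinned cortical TAL-α barcodes and 19.8% of thinned MD barcodes, and Clcn5 in 11.7% and 12.1%. Clcn6 was counted in 2.20% and 3.22% and Clcn7 in 3.54% and 5.51%. Clcn4 was counted in 4.85% and 5.97%. For these 5 genes the separate intervals of MD and TAL-α overlapped, which does not exclude a difference. The ratio of thinned CPM for Clcn7, 1.65 (1.11 to 2.39), had an interval that excluded 1. In medullary MD, Clcn5 was at 0.752 of TAL-α by CPM (0.444 to 1.19, 18 counts) and Clcn6 at 0.535 from 2 counts, so a drop there was not detectable at this depth.

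Proximal tubule barcodes in the same matrices served as cells that should lack barttin. They were picked as barcodes with at least 10 counts of the proximal tubule list and at most 2 of Slc12a1, 86 in cortex and 100 in medulla. The raw barcodes described below held Slc12a1 at 13433.5 and 21766.9 CPM, beside Bsnd. The cap thus also leaves out barcodes with more TAL or free RNA, and low Bsnd may be in part set by this choice. MD barcodes held at least 10 Slc12a1 counts and had no such cap, so the 2 kinds were not picked alike. Bsnd held 3 counts there in cortex, 7.46 CPM (1.54 to 21.8), and 0 counts in medulla, where 3 counts would be 6.49 CPM. Of these barcodes 2.33% in cortex and 0% in medulla held a Bsnd count, at median depths of 3436 and 4571 counts, against 7.66% of the shallower cortical MD barcodes. By share of barcodes, medullary MD, with 2 of 78 or 2.56% (0.312 to 8.96), could not be told from these proximal tubule barcodes. Its barcodes were shallower too, at a median of 1996 counts, which lowers the share. By CPM it was at 18.1 (3.73 to 52.8, 3 counts) against the 0 counts of medullary proximal tubule barcodes, and that ratio was not computed.

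Clcn3 to Clcn7 were all present in proximal tubule barcodes. In cortex Clcn3 was at 306 CPM there, Clcn4 at 59.7, Clcn5 at 147, Clcn6 at 42.3 and Clcn7 at 59.7. Against cortical TAL-α barcodes with fewer than 5 counts of the proximal tubule list, Clcn6 was 2.05-fold (1.15 to 3.41, 17 counts) and Clcn7 1.61-fold (1.01 to 2.47, 24 counts). Clcn3 was 1.22-fold (1.00 to 1.46), Clcn4 1.18-fold (0.742 to 1.78) and Clcn5 1.14-fold (0.858 to 1.48). In medulla the same ratios were 1.12 for Clcn3 (0.927 to 1.34), 0.436 for Clcn4 (0.208 to 0.809, 10 counts) and 0.565 for Clcn5 (0.398 to 0.780). Clcn6 was at 1.79 (1.04 to 2.90, 18 counts) and Clcn7 at 1.12 (0.655 to 1.80) there. Clcn4 and Clcn5 were thus below TAL-α in medulla and not in cortex, a difference between libraries that was not tested. The exchanger genes were thus counted in both cell types, and Bsnd in proximal tubule barcodes of cortex was at 0.0780 of TAL-α (0.0160 to 0.229, 3 counts). In medulla, with 0 counts, the upper limit of that ratio was 0.144.

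Bsnd CPM was lower in TAL-α barcodes that held more proximal tubule transcripts. Of cortical TAL-α barcodes, 376 (13.3%) held 5 or more counts of the proximal tubule list, and in these Bsnd was at 39.8 CPM (31.5 to 49.5) against 95.6 CPM (87.9 to 104) in the other 2448. Slc12a1 was lower in them too, at 7749 against 17689 CPM. The 376 barcodes were deeper, with 2011107 counts in all and 80 of Bsnd, against 5954123 and 569 in the other 2448. Bsnd counts per barcode thus lay closer together than the CPM values. In medulla the CPM of Bsnd in the same 2 sets was 25.6 (12.8 to 45.8, 11 counts) and 55.5 (50.8 to 60.6). In cortex Clcn3 was at 1.09 of its level in the other barcodes (0.987 to 1.20) and Clcn7 at 1.21 (0.937 to 1.55). In MD, 7.04% of cortical barcodes held such counts, fewer than in TAL-α. Without all barcodes that held another cell type's transcripts, Bsnd in cortical MD was 0.389 of TAL-α (0.280 to 0.528), and medullary TAL-α was 0.578 of cortical TAL-α (0.510 to 0.656).

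**Figure D4:**
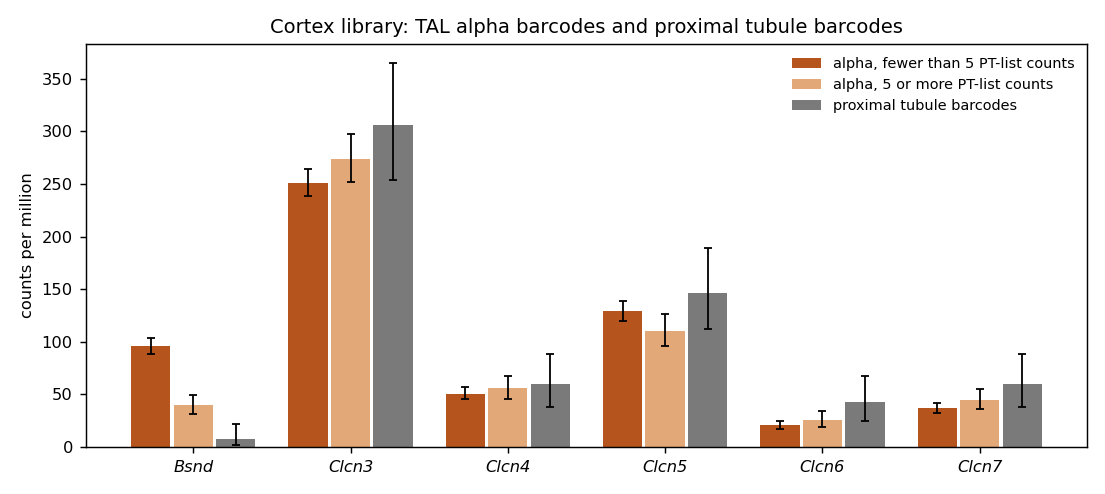
CPM of the 6 genes in the cortex library, in TAL-α barcodes with fewer than 5 counts of the proximal tubule (PT) list, in TAL-α barcodes with 5 or more, and in proximal tubule barcodes, with 95% Poisson intervals. Bsnd steps down from 95.6 to 39.8 to 7.46 CPM, and the 5 exchanger genes are not lowest in proximal tubule barcodes. TAL-α barcodes with 5 or more PT-list counts hold more total counts each, which lowers CPM at equal Bsnd counts.

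Barcodes of the raw matrices that were not among the filtered ones and held 5 to 100 counts carried Bsnd at 101 CPM in cortex (88.6 to 115) and 77.5 CPM in medulla (64.9 to 91.8). These values are above those of every class of the same library, although the interval in medulla overlaps that of TAL-β. Taking off 10% of each class total at that composition put the cortical MD ratio at 0.354.

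The clusters deposited with each library, made from the same barcodes, reached higher Bsnd values than the 4 classes, in part from few counts. There were 13 per library, of which 12 in each held at least 5000 CPM of Slc12a1. Among those 12, Bsnd ranged from 29.9 to 115 CPM in cortex and from 24.5 to 99.9 CPM in medulla. The highest value of cortex, in cluster 8, rested on 67 counts. That of medulla, in cluster 13, rested on 14 counts in 59 barcodes. The lowest value of medulla was above the 18.1 CPM of the medullary MD class, which rests on 3 counts. The lowest values, in cluster 6 of cortex and cluster 10 of medulla, stood in clusters where Lrp2 of the proximal tubule was at 1791 and 1649 CPM, and cluster 7 of cortex, with Bsnd at 41.6 CPM, had Lrp2 at 1346 CPM. The part of these transcripts in the low values was not tested. The cluster rich in MD barcodes had 30.8 CPM in cortex (cluster 3, 75.1% MD) and 26.7 CPM in medulla (cluster 12, 71.7% MD, 5 counts). Clusters 13 of cortex and 11 of medulla, in which no barcode reached the Slc12a1 minimum, held 0 Bsnd counts. Lrp2 stood at 2386 and 2296 CPM in them. Other barcodes below the minimum did hold Bsnd. The 224 barcodes of cortex below it were at 36.3 CPM (24.1 to 52.5, 28 counts). The 154 of medulla were at 28.8 CPM (16.8 to 46.2, 17 counts). Cluster 12 of cortex, with 50.6% of its barcodes below the minimum, held Bsnd at 69.6 CPM. The cell type of these barcodes was not tested.

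Within medullary TAL-α, Bsnd differed between clusters while the class was the same. In the 1489 TAL-α barcodes of cluster 1 it was at 74.7 CPM (66.3 to 83.8), in the 788 of cluster 3 at 42.9 CPM (34.2 to 53.2) and in the 644 of cluster 4 at 30.0 CPM (21.8 to 40.2). In those of cluster 2 it was at 38.9 CPM (25.4 to 57.0), and clusters 6 and 8, with 112 and 175 TAL-α barcodes, held 53.8 and 35.5 CPM from 14 and 8 counts. Clcn5 stood at 132, 161 and 176 CPM in clusters 1, 3 and 4 and at 92.8 CPM (71.1 to 119) in cluster 2, so it followed no single order against Bsnd. As the clusters may have been made with these genes among others, the values are a description. Cortical TAL-α barcodes of the MD-rich cluster, 160 in number, held Bsnd at 47.2 CPM (25.1 to 80.7), below the 98.8 CPM of cluster 1.

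**Figure D5:**
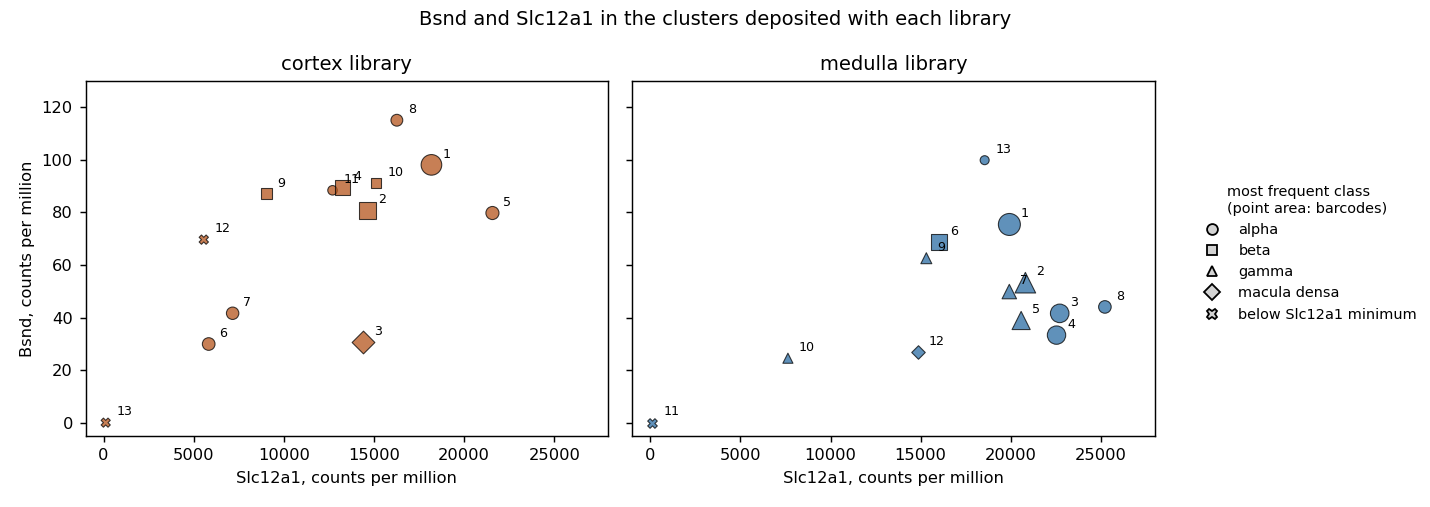
Bsnd against Slc12a1, both in CPM, in the 13 numbered clusters of each library, with the marker shape giving the most frequent class and its area the number of barcodes. The macula densa clusters, 3 of cortex and 12 of medulla, hold Bsnd at 30.8 and 26.7 CPM beside Slc12a1 at 14405 and 14857 CPM.

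Other genes of chloride transport were read in cortical MD against TAL-α, the comparison within a library in which Bsnd was past the fold with over 50 counts in each class. Of 5 genes for potassium channels and the sodium pump that work with chloride exit, 3 were lower past the fold, 0 higher, where 12.3% of all genes were lower and 12.1% higher. They were Kcnj16 at 0.608 (0.571 to 0.648), the pump subunit Atp1b1 at 0.571 (0.544 to 0.599) and the pump's regulator Fxyd2 at 0.341 (0.323 to 0.360). Kcnj1, the apical potassium channel, was at 0.753 and Kcnj10 at 1.11 (0.736 to 1.63). Of 5 cation-chloride cotransporters, Slc12a4 (0.469, 11 MD counts) and Slc12a7 (0.654), both potassium-chloride cotransporters, were lower past the fold.

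For genes that work with the exchangers and for other chloride channels, the counts in that comparison stand beside the same 12.1% of all genes higher and 12.3% lower, and lists this short were not read as standing apart from it. Of 3 partner subunit genes, Tmem9, whose product binds ClC exchangers, was higher at 1.61-fold (1.15 to 2.24). Ostm1 was at 1.27-fold (0.915 to 1.73), inside the fold. Of 11 proton pump genes 1 was higher, Atp6ap2 at 1.80-fold (1.35 to 2.37), and of 11 endosome and lysosome genes 0 passed the fold in either direction. Of 4 volume-regulated anion channel genes with enough counts, 2 were higher, Lrrc8c at 8.12-fold (6.24 to 10.6) and Lrrc8b at 1.84-fold (1.35 to 2.48). Of 3 calcium- and cAMP-activated chloride channel genes and relatives 1 was higher (Ano10, 1.73-fold), and of 2 anion exchangers and 1 further CLC gene 0 passed.

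In medullary against cortical TAL-α, Fxyd2 was at 0.640 (0.626 to 0.654), past the fold in the direction of Bsnd. Over all genes, 16.5% were lower past the fold and 4.79% higher, so lower calls prevailed, and the counts below were not read as standing apart from that share. Of the 11 proton pump genes, 3 were lower past the fold, namely Atp6v1b1 at 0.399 (0.357 to 0.445), Atp6v0a4 at 0.543 and Atp6v1a at 0.632. Lower past the fold were also 2 of 4 volume-regulated channel genes (Lrrc8b at 0.475, Lrrc8c at 0.210), Cftr at 0.265 of 3 in its list and Slc26a11 at 0.597 of 2 anion exchangers. Of the 5 cotransporters 0 were lower, and Slc12a4, at 1.51, was the single listed pathway gene higher past the fold. Of 11 endosome and lysosome genes 2 were lower. These were Lrp2 and Cubn, the endocytic receptors of the proximal tubule, at 0.193 and 0.246, and the proximal tubule list as a whole summed to 3045 CPM in TAL-α of the cortex library against 548 CPM in that of the medulla library. Its part in the ratios of these pathway genes was not tested.

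Genes with the most similar pattern were sought by Pearson's r of log2(CPM + 1) over the 8 groups, among 8277 genes with at least 500 counts. For Bsnd these were Tlcd1 (r = 0.991), Cep85l (0.987), Scnn1a (0.983), Kirrel3 (0.981) and Aff1 (0.980). Fxyd2 had r = 0.961 and Kcnj16 0.865 with Bsnd. For Clcn3 they were Nedd9 (0.984) and Pde7b (0.977), for Clcn4 Jmjd6 (0.926), Tmem39a (0.913) and Taf6 (0.899), and for Clcn5 Zfp664 (0.967), Tmtc3 (0.967) and Ctdspl2 (0.962). For Clcn6 they were Tlk1 (0.993), Zfp687 (0.988) and Ercc5 (0.987), and for Clcn7 Tmem192 (0.982), Gm15834 (0.976) and Wasf2 (0.971). With 8 points that include the sparse medullary MD group and share 2 libraries, and 8277 genes to choose from, the names are a description.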

How the data were processed

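Nuclei were profiled with the PIPseq kit, which reads the ends of transcripts. Per the labels and the study's methods, the authors demultiplexed with bcl2fastq, aligned and counted with PIPseeker on the GRCm39 build, and deposited raw and filtered matrices of counts per gene and barcode with PIPseeker's clusters. The annotation release is not given in the sources used here. The study's later steps (doublet removal, ambient RNA correction, normalization and integration, with Seurat 4.4.0 per the submitters' processing notes) are not part of these counts, and it kept fewer nuclei than the filtered matrices hold. Here no doublet caller was run, and barcodes of mixed content were kept in the values reported and left out in alternatives.

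Counts as deposited were summed per class and library and divided by the class total (CPM). Ends of transcripts were counted, so levels were not compared between genes. Levels (CPM) were given exact Poisson intervals at 95%, ratios the binomial interval conditional on their summed counts, and shares the Clopper-Pearson interval, which all cover counting error only. The CPM that 3 counts would give was taken as a floor to read low values by, and 0 counts stayed 0 in levels and ratios. A ratio was called past a fold of 1.5 in either direction where both groups together held at least 50 counts, and the share of all genes past it was taken as background. Groups needed 50 barcodes. Thinning drew 1000 counts per barcode and left out 18 shallower TAL-α and 5 TAL-γ barcodes of medulla. No test was possible with 1 library per region.

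The 6 genes, the gene lists and the rule for named genes (all members, the 5 genes most like Bsnd and 3 most like each other member, pathway genes past the fold in a member's direction, and Ostm1) were chosen with earlier results of these data known. Kcnj1, Kcnj10 and, where higher in medulla, Slc12a4 were named after their values were seen, to complete their lists. A few genes of these lists and rules are not reported here. Interval and fold calls were tried on counts simulated with Poisson error, as the intervals assume, for genes with at least 200 counts in cortical groups. That does not bear on smaller counts or on spread between barcodes or animals. Python 3.11.15, numpy 2.4.6, scipy 1.17.1 and pandas 2.3.3 were used.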

Additional observations from a re-analysis of the deposited data

How the results depend on the processing

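The 72 member ratios were recomputed under 12 alternatives, 11 planned and 1 chosen after seeing the data (classes narrowed by Cldn10, Cldn16 and Kcnj10). Of 864 values, 833 stayed within the counting interval of the reported ratio and 31 moved outside it, and no ratio past the fold turned its direction. Bsnd in cortical MD against TAL-α stayed past the fold under all 12, with 0.273 to 0.491. It moved to 0.302 with totals of 1500 to 4000 counts and 0.273 after thinning, and the highest value came with Slc12a1 of at least 20. Bsnd in medullary against cortical TAL-α moved to 0.578 without barcodes of other cell types, and it was inside the fold when scaled without Slc12a1, Umod and mitochondrial genes (0.668) or with narrowed classes (0.719). Bsnd in cortical TAL-β against TAL-α moved to 1.08 with narrowed classes. The cause of these moves was not tested. Clcn6 in cortical MD stayed past the fold under all 12, with 1.52 to 1.87. The medullary to cortical ratio of Clcn7 in TAL-γ, inside the fold, turned from 0.695 to 1.13 without barcodes of other cell types, and that of Bsnd passed the fold after thinning (0.653). Clcn7 in cortical MD against TAL-α passed the fold after thinning (1.65) and by the mean of per-barcode CPM (1.504). Bsnd and Clcn7 in TAL-β against TAL-α of medulla were 1.55 and 1.58, past the fold, without barcodes passing more than 1 class threshold. Against TAL-γ of medulla, Bsnd and Clcn7 in TAL-β were 1.76 and 1.71 in that setting, past the fold. Bsnd in that comparison was 1.505 after thinning, just past it. Detection shares moved outside their interval in 44 of 48 cases after thinning, which removes counts and so lowers shares by itself. They moved in 0 of 48 when barcodes with few genes or over 5% mitochondrial counts were dropped. That filter kept 3775 of 3776 medullary TAL-α barcodes and every barcode of the other groups. This setting, also among the 12 for the ratios, could thus hardly move a value. By Spearman's rho, 15 of the 19 similar genes stayed among the first 20. Genes past a fold of 1.5, then of 2, then of 1.5 with at least 200 counts, numbered 1174, 387 and 452 for TAL-β and 2037, 683 and 624 for TAL-γ against TAL-α of cortex. They numbered 2791, 1116 and 1364 for cortical MD, 1661, 541 and 655 for medullary TAL-β, 962, 307 and 387 for medullary TAL-γ, and 5635, 3456 and 2926 for medullary MD. Between libraries they numbered 2683, 1313 and 1377 in TAL-α, 2074, 1021 and 777 in TAL-β, and 3391, 1672 and 1451 in TAL-γ. No paired analysis was possible because there is 1 library per region and the labels carry no replicate numbers. Depth limits medullary MD most, where 3 counts correspond to 18.1 CPM.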
